A study of Mus musculus with 6 samples.

Results

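The circRNAs mmu_circRNA_27407 and mmu_circRNA_27408 bear consecutive numbers in the naming of the array and were both listed by the study among the 10 circRNAs with the largest increase in the hippocampus of aged mice with postoperative cognitive dysfunction (POCD). They are read by the probes ASCRP4006538 (mmu_circRNA_27407) and ASCRP4007409 (mmu_circRNA_27408), which are 2 of the 14236 circRNA probes of the array. Both were selected on the deposited log2 values of these same arrays, by their fold change and p between POCD and control, so the difference between the groups is described here and not tested. The study listed 20 circRNAs by name, and this pair was the 1 pair with consecutive numbers among them. The next closest numbers in that list were 203 apart.

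A circRNA is a closed loop of RNA that arises when the end of an exon or of a longer stretch of a transcript is spliced back to an upstream start. The loop has no free ends, which makes it stable, and the brain is rich in such loops. What separates a circRNA from the linear transcripts of its host gene is the back-splice junction, the place where the ends of the loop meet. Several circRNAs can come from the same host gene, and they then differ in the exons they enclose. The host genes and genome positions of mmu_circRNA_27407 and mmu_circRNA_27408 are not given in the sources used here, and the consecutive numbers are not read as a sign of a shared gene. Their sequences and functions were not analysed here for the same reason.

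Hippocampal RNA came from 6 male C57Bl/6 mice aged 18 months. The 3 POCD mice had intramedullary fixation of an open tibial fracture under isoflurane, with local anesthetics for pain afterwards, and the tissue was taken on day 3. The 3 control mice were of the same strain, sex and age, and the sources used here do not say whether they received isoflurane, so fracture surgery, anesthesia and pain treatment cannot be told apart. The tissue was taken after a fear conditioning test. The treatment label of the POCD mice reads surgery, and POCD is the name the paper gives this group. The sources used here give no result of that test for single mice. Each mouse was read on 1 array with 1 dye, Cy3. The 6 arrays bear the same scan date and different positions, and are treated here as 1 slide. Hippocampal tissue was used, so a change in the share of a cell type and a change in RNA per cell cannot be told apart. The circRNA probes are not paired with genes in the files used here, and the labelled tissue was therefore not checked against marker genes. The labeling protocol names rRNA removal and random priming and no digestion of linear RNA, and the part of linear RNA in these signals was not tested.

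Both probes were bright and clean on every array. Intensities are given after background subtraction and after a factor by which the scanner software evens out trends across the array. In the units of the scanner, the intensity of mmu_circRNA_27407 was 3378, 3849 and 2351 on POCD replicates 1, 2 and 3. On control replicates 1, 2 and 3 it was 2111, 1510 and 1538. For mmu_circRNA_27408 it was 1573, 1713 and 1322 on the same POCD arrays, against 830.1, 694.2 and 601.0 on the control arrays. Before any scaling between arrays, every POCD array was thus already above every control array for both circRNAs. The median intensity of the mmu_circRNA_27407 spot was between 75.05 and 202 times that of its local background, and that of the mmu_circRNA_27408 spot was between 33.5 and 92.6 times. All 12 spots were well above background, and none was marked as uneven or as an outlier. Among the circRNA probes of the same array, the brightness of mmu_circRNA_27407 lay between the 97.0th and the 97.4th percentile in POCD and between the 93.5th and the 95.4th in control. That of mmu_circRNA_27408 lay between the 93.5th and the 94.5th percentile in POCD and between the 85.0th and the 89.4th in control. These ranks describe how bright the spots were, since each probe binds its target with its own strength and brightness does not order circRNAs by abundance.

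To compare arrays, log2 intensities were expressed relative to each array's 75th percentile over the circRNA probes. On this scale mmu_circRNA_27407 was at 3.33, 3.49 and 3.14 on POCD replicates 1, 2 and 3 and at 2.80, 2.25 and 2.26 on control replicates 1, 2 and 3. The POCD arrays lay above all controls, and control replicate 1 stood above the other controls, which were nearly equal. The POCD mean was 3.32 ± 0.18 (SD, n = 3) and the control mean 2.44 ± 0.31 (SD, n = 3), which gives a log2 difference of 0.88 (standard error 0.19, limma), or 1.84-fold. The lowest POCD array and the highest control array were 0.34 apart. As a measure of the error of a spot, repeated spots of the same probe had a median SD of 0.067 (log2). This was taken over 77 probes that are not among the 14236, are spotted 10 times each and were not matched to the pair in brightness. The scanner software put the error of the spots of the pair at 10% of their intensity.

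mmu_circRNA_27408 was at 2.23, 2.32 and 2.31 on POCD replicates 1, 2 and 3 and at 1.45, 1.13 and 0.91 on control replicates 1, 2 and 3. The POCD arrays were within 0.10 of each other, while the controls were spread out, again with control replicate 1 on top. The log2 difference was 1.12 (standard error 0.17, limma), or 2.18-fold. The gap between the groups was 0.77, wider than the 0.34 of mmu_circRNA_27407. In the order of the arrays on this scale, POCD replicate 2 was the highest for both circRNAs and control replicate 1 the highest control for both. POCD replicates 1 and 3 changed places between the circRNAs, as did control replicates 2 and 3. For mmu_circRNA_27407 control replicates 2 and 3 were closer together than this SD of repeated spots. For mmu_circRNA_27408 the same held for POCD replicates 2 and 3.

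**Figure D1:**
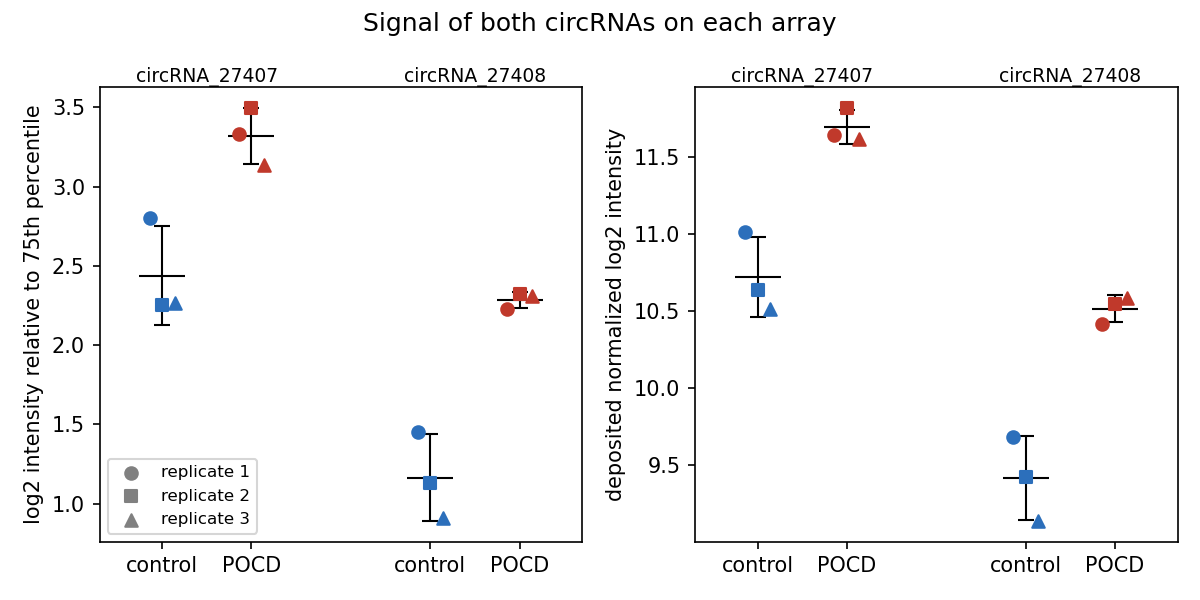
Signal of mmu_circRNA_27407 and mmu_circRNA_27408 on the 3 POCD arrays (red) and the 3 control arrays (blue), as log2 intensity after subtraction of the array's 75th percentile (left) and as the deposited normalized log2 intensity (right). Points are arrays, with the shape giving the replicate number, horizontal lines are group means and bars are SD; for both circRNAs and on both scales every POCD array lies above every control array.

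In the deposited log2 values, which the authors had normalized between arrays, the groups were again apart. There mmu_circRNA_27407 was at 11.64, 11.82 and 11.62 in POCD replicates 1, 2 and 3 and at 11.01, 10.64 and 10.51 in the controls, a log2 difference of 0.97. mmu_circRNA_27408 was at 10.42, 10.55 and 10.58 in POCD and at 9.68, 9.43 and 9.14 in the controls, a log2 difference of 1.10. The order of the arrays was not the same as on the scaled intensities. In the authors' values POCD replicate 3 and not POCD replicate 2 was the highest for mmu_circRNA_27408, with POCD replicate 2 still the highest for mmu_circRNA_27407. Control replicate 2 was above control replicate 3 for both circRNAs, whereas on the scaled intensities this held for mmu_circRNA_27408 and not for mmu_circRNA_27407.

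These values chose the circRNAs, and the place of the pair among all probes is given with no test. On the scaled intensities both circRNAs passed the thresholds of the study in limma, a fold change of 1.5 or more with p below 0.05 before adjustment, which 1.82% of the 14144 circRNAs tested did in this direction. After Benjamini-Hochberg adjustment none of these calls remained: 0 circRNAs, the pair included, were below an adjusted p of 0.05 in limma on the scaled intensities, where 2048 were below 0.05 unadjusted, and the methods' t-test also gave 0, on the scaled intensities and on the authors' values. Leaving out control replicate 2 gave 560 in limma. Both circRNAs of the pair also had every POCD array above every control array, as did 6.24% of the 14125 circRNAs with values on all 6 arrays. On the deposited values both passed the same thresholds with the methods' t-test, as did 0.618% of the 14236 probes in this direction, and both had groups that did not overlap, as did 9.39%. The split of all calls by direction depended on the processing and the test. With limma, 257 of 939 were higher in POCD on the scaled intensities, 366 of 874 after quantile normalization and 221 of 559 on the authors' values. With the methods' t-test, 94 of 259 were higher on the scaled intensities and 88 of 124 on the authors' values. By the size of the log2 difference on the scaled intensities, mmu_circRNA_27408 was 24th and mmu_circRNA_27407 64th of the 14144 circRNAs tested, whose median was -0.03. Among the 10 raised circRNAs of the list, mmu_circRNA_27408 had the second largest log2 difference and the smallest standard error, and mmu_circRNA_27407 had the ninth largest difference and the third smallest standard error.

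The list ends at mmu_circRNA_27407. In the deposited values, 88 probes were higher in POCD past both thresholds. The probe ranked 9th was at a log2 difference of 0.9728, mmu_circRNA_27407 in rank 10 was at 0.9720, and the first probe left out, in rank 11, was at 0.9713. These steps are far smaller than the SD of mmu_circRNA_27407 between replicate arrays.

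Whether the circRNAs of the pair changed by the same amount was read from their difference within each array, in which the scaling of the array cancels. The size of this difference on a single array also carries the binding strength of each probe, so only its change from array to array is described. The log2 value of mmu_circRNA_27408 minus that of mmu_circRNA_27407 was -1.10, -1.17 and -0.83 on POCD replicates 1, 2 and 3 and -1.35, -1.12 and -1.36 on control replicates 1, 2 and 3. The groups overlapped, since control replicate 2 lay above POCD replicate 2. The POCD mean was -1.03 ± 0.18 (SD, n = 3) and the control mean -1.27 ± 0.13 (SD, n = 3), 0.24 apart. POCD replicate 3 held the highest value, and without it the means were 0.14 apart. The change in the difference from control to POCD was 0.18 with quantile normalization, 0.15 with the normexp background correction and 0.13 in the deposited values, and the groups overlapped with quantile normalization and in the deposited values as well. A larger increase of mmu_circRNA_27408 than of mmu_circRNA_27407 was not resolved with 3 arrays per group. The pooled SD of the difference within groups was 0.16, below the 0.25 of mmu_circRNA_27407 and the 0.20 of mmu_circRNA_27408 on their own. In control the SD of the difference was 0.13, against 0.31 for mmu_circRNA_27407 and 0.27 for mmu_circRNA_27408. In POCD it was 0.18, against 0.18 and 0.05. The difference thus varied less than the circRNAs themselves in control only.

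**Figure D2:**
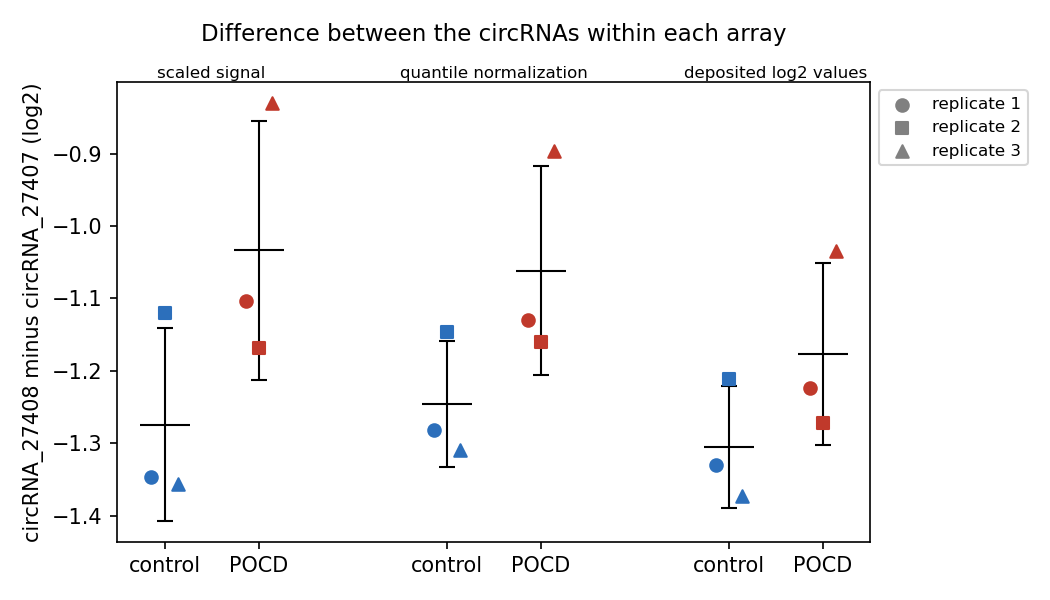
Log2 value of mmu_circRNA_27408 minus that of mmu_circRNA_27407 within each array, for the scaled intensities, after quantile normalization and in the deposited values, with control arrays in blue and POCD arrays in red. Points are arrays, with the shape giving the replicate number, horizontal lines are group means and bars are SD; the groups overlap on all 3 scales, and POCD replicate 3 is the highest point on each.

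The deviations of the circRNAs of the pair from their group means were also compared array by array. On control replicate 1, mmu_circRNA_27407 was 0.36 and mmu_circRNA_27408 0.29 above the mean of the controls, and on control replicate 3 they were 0.17 and 0.26 below it. On control replicate 2 they fell below the mean by 0.19 and 0.03. POCD replicate 2 was above the POCD mean by 0.17 and 0.04. On POCD replicates 1 and 3 the signs differed, with mmu_circRNA_27407 at 0.01 and -0.18 and mmu_circRNA_27408 at -0.06 and 0.02. The sign was thus shared on 4 of the 6 arrays, and how often other probes share it was not counted. On control replicate 2 and the POCD arrays, mmu_circRNA_27408 deviated by less than the SD of repeated spots, 0.067. In the deposited values and after quantile normalization, the sign was shared on POCD replicate 1 and differed on control replicate 2. With the group means removed, Pearson's r between the circRNAs was 0.78 over the 6 arrays. This rests on control replicate 1, which was high for both: without that array r was 0.017, and with any other array left out it was between 0.80 and 0.91. Within the POCD group the values of mmu_circRNA_27408 spanned so little that hardly any shared movement could be seen.

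Without removing the group means, r was 0.96 and Spearman's rho 0.89 over the 6 arrays. No POCD array overlapped a control array for either circRNA, and both were picked for being higher in POCD, so this r includes the difference that chose them. For mmu_circRNA_27408 the gap of 0.77 between the groups was wider than the range of 0.55 of the controls, while for mmu_circRNA_27407 the gap of 0.34 was narrower than the control range of 0.55. Without control replicates 2 and 3, the arrays farthest from the median of mmu_circRNA_27407, r was 0.87 over 4 arrays. These 4 are the POCD arrays and control replicate 1, so this r also includes the difference between the groups.

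**Figure D3:**
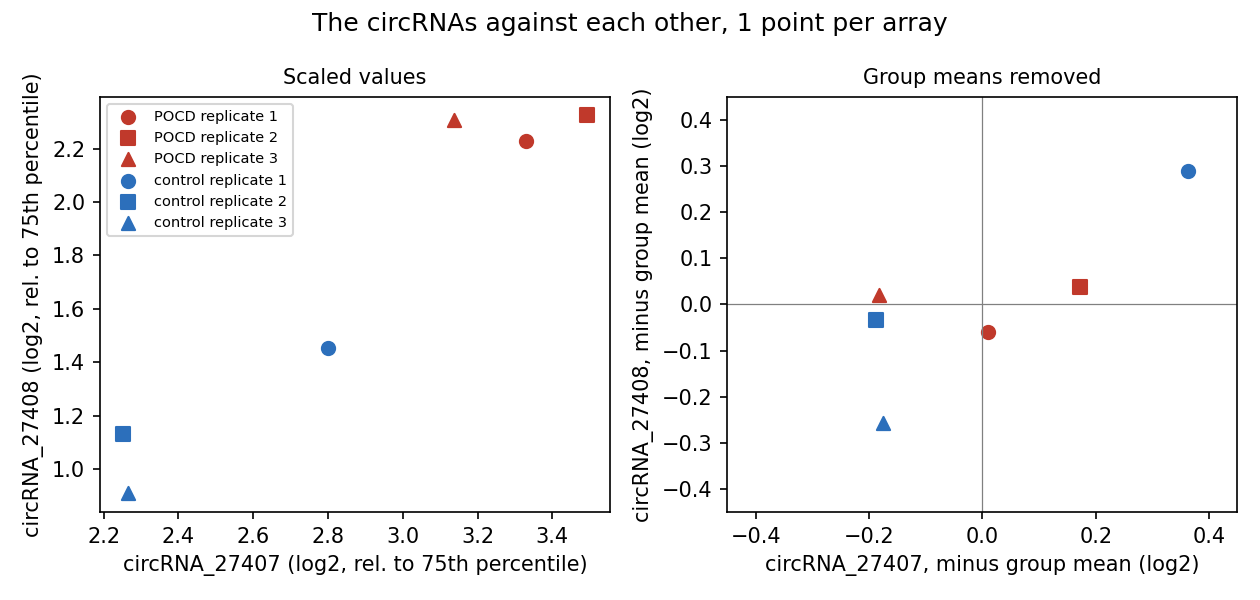
mmu_circRNA_27408 (y axis) against mmu_circRNA_27407 (x axis) on the 6 arrays, as log2 intensity after subtraction of the array's 75th percentile (left) and as the deviation of each array from the mean of its group (right). POCD arrays are red and control arrays blue, and on the right control replicate 1, at 0.36 and 0.29, stands apart from the other arrays.

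The likeness of the pair was set beside that of all other probes with values on the 6 arrays, 14124 for each member, as a description. Ranked by r with mmu_circRNA_27407, mmu_circRNA_27408 was 6th, and ranked by r with mmu_circRNA_27408, mmu_circRNA_27407 was 17th. The probe most like mmu_circRNA_27407 was ASCRP4005089, with r of 0.99 over 6 arrays and a log2 difference between the groups of 0.40, and the probe most like mmu_circRNA_27408 was ASCRP4012174, with r of 0.99 and a log2 difference of 0.51. Both probes have no circRNA name in the sources used here, and both moved over a smaller range than the pair. The SD over the 6 arrays of the difference between the circRNAs of the pair was 0.19, where the median over all probes was 0.60 for mmu_circRNA_27407 and 0.69 for mmu_circRNA_27408. For each circRNA of the pair a single other probe came closer by this measure. Few probes differed between the groups as much as the pair, and the choice of the pair bears on this rank.

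With the group means removed, which takes out the difference between the groups, the pair stood out less. The p that also chose the pair depends on the spread within groups, and that spread stays in these values. By r, 484 probes were more like mmu_circRNA_27407 than mmu_circRNA_27408 was, and 186 were more like mmu_circRNA_27408 than mmu_circRNA_27407 was. By the SD of the difference, which was 0.16 for the pair, the partner ranked 219th for mmu_circRNA_27407 and 308th for mmu_circRNA_27408, against medians over all probes of 0.34 and 0.30. The points behind each r share 6 arrays and their scaling, and many circRNAs vary together on these arrays.

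**Figure D4:**
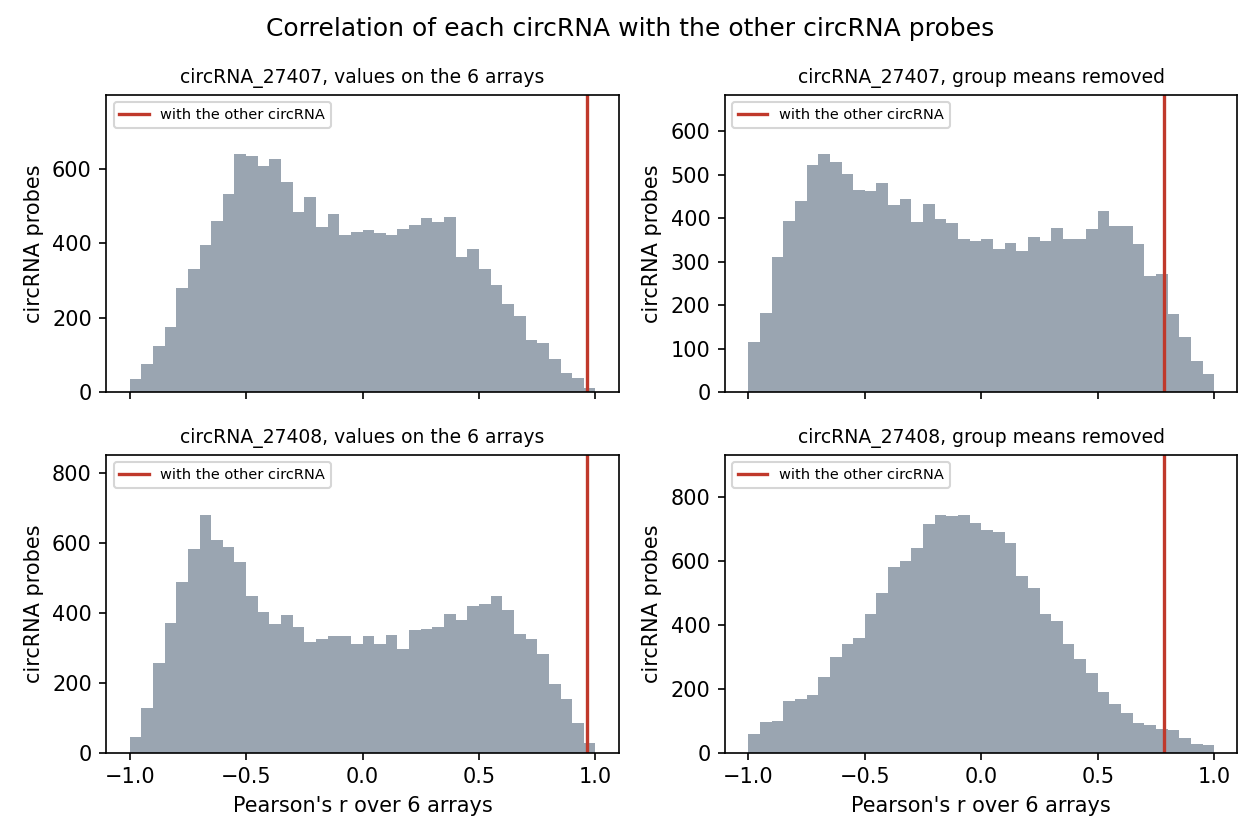
Number of circRNA probes (y axis) by Pearson's r over 6 arrays (x axis) with mmu_circRNA_27407 (top) and mmu_circRNA_27408 (bottom), for the scaled values (left) and with the group means removed (right). The red line marks r between the circRNAs of the pair, 0.96 on the left and 0.78 on the right, where 484 and 186 other probes lie above it.

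The other 8 raised circRNAs of the list were less like mmu_circRNA_27407 than its partner was, with r between 0.62 and 0.87, and with mmu_circRNA_27408 they had r between 0.79 and 0.96. The closest to mmu_circRNA_27408 was mmu_circRNA_22261, with r of 0.958 against 0.962 for mmu_circRNA_27407. Of the 45 pairs that the 10 raised circRNAs form, the pair of consecutive numbers had the seventh highest r and the seventh smallest SD of the difference. Several pairs with distant numbers therefore moved together more closely than this pair did.

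With the group means removed, the circRNAs of the pair differed in how they followed the other raised circRNAs. The r of mmu_circRNA_27407 with the other 8 had a median of -0.46 and was above 0 for 1 of them, mmu_circRNA_22261. With the 10 circRNAs the study listed as lowered, the r of mmu_circRNA_27407 was above 0 for all 10, from 0.21 to 0.85. The r of mmu_circRNA_27408 was above 0 for 4 of the other 8 raised circRNAs, from -0.36 to 0.82 with a median of -0.04. With the lowered circRNAs it was above 0 for 8 of 10, from -0.21 to 0.40 with a median of 0.17. With mmu_circRNA_22261 it had r of 0.82, above the 0.78 with its own partner. Over all other probes, r below 0 was more frequent than r above 0 for both circRNAs of the pair. Some raised circRNAs followed each other closely, with r up to 0.99, so these counts are not of independent circRNAs. Whether the values rest on control replicate 1, as the r of the pair does, was not checked. These are values over 6 arrays with the group means removed, and no test was made of them.

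The spots of the pair lie far apart on the array, at row 107 and column 36 for mmu_circRNA_27407 and at row 5 and column 20 for mmu_circRNA_27408, 102 of 192 rows from each other. Around mmu_circRNA_27407, the 107 tested circRNA probes within 5 rows and 5 columns had a median log2 difference between the groups of -0.01, and none reached that of mmu_circRNA_27407. Around mmu_circRNA_27408, the 99 such probes had a median of -0.11, and 1 was as high. The local background of the mmu_circRNA_27407 spot was between 18 and 20 units in POCD and between 19 and 20.5 in control, and that of the mmu_circRNA_27408 spot between 16 and 19 in POCD and between 16.5 and 17.5 in control.

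The scanner software multiplies each spot by a factor that evens out trends across the array, and this factor moved with the group for mmu_circRNA_27408. In POCD it was between 1.06 and 1.08, and in control between 1.03 and 1.05. For mmu_circRNA_27407 it was between 0.984 and 1.02 in POCD and between 0.997 and 0.9997 in control. With the intensity before this factor, the log2 difference was 1.08 for mmu_circRNA_27408 and 0.89 for mmu_circRNA_27407.

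The place of the arrays on the slide also moved with the group. Row 1 of the slide held the 3 controls together with POCD replicate 1, and row 2 held the other POCD arrays. Within row 1, POCD replicate 1 was above the mean of the controls by 0.89 on the log2 scale for mmu_circRNA_27407 and by 1.06 for mmu_circRNA_27408, close to the 0.88 and 1.12 over all arrays. Row 2 held POCD arrays only and gives no difference of its own.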

How the data were processed

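The members and lists were chosen with earlier results of these data known. Hippocampal RNA of 3 POCD and 3 control mice, grouped by the treatment label, was hybridized to 1-colour Arraystar circRNA arrays and read with Agilent Feature Extraction version 11.0.1.1, per the submitters' processing notes. The authors deposited linear spot intensity from which the scanner software had subtracted background, with no normalization across arrays, and a table of normalized log2 values, for which the paper names limma but no method. Names were taken from the study's list of 20.

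Spots that the software flagged (uneven, outlier) were dropped. The log2 intensity was scaled to the 75th percentile of the circRNA probes. Probes well above background on at least 3 arrays were fitted in limma version 3.58.1 (R version 4.3.3). The fit was also run on simulated data with independent noise, in which 200 probes were shifted by a log2 of 2. That shift is larger than those of the pair, so the run does not speak to changes of their size. Likeness was Pearson's r, and of the 2 probes most like each member the first is printed. The methods' t-test was two-sided with equal variances. Each array had from 98.3% to 99.5% of its circRNA probes well above background, and the number of arrays limits the precision. The mice are separate animals. Alternatives were the deposited values, quantile normalization, normexp with an offset of 50, other filters and fits, blocks and each array left out. As a further alternative, the 75th percentile was taken over only the probes well above background on every array. Plots were drawn with matplotlib version 3.10.9.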

Additional observations from a re-analysis of the deposited data

How the results depend on the processing

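The intensity before the trend factor was an alternative chosen after seeing the data. Under 13 alternatives each, the log2 difference of mmu_circRNA_27407 was between 0.79 and 1.06 and that of mmu_circRNA_27408 between 0.99 and 1.27. Their difference within arrays changed by between 0.13 and 0.32. Not all of the 13 could move these values. The replicate block leaves every group difference as it was, and a percentile taken over other probes cancels in the difference within arrays. The lowest and highest values with an array left out were 0.79 and 1.06, 0.99 and 1.27, and 0.14 and 0.32. The correlation over the 6 arrays stayed between 0.94 and 0.99. With the group means removed it was between 0.78 and 0.86 with all arrays and between 0.017 and 0.91 with an array left out. The background count, circRNAs at 1.5-fold or more with p below 0.05 before adjustment, was 939, of which 257 were higher in POCD. It was 559 on the deposited values, with 221 higher, 410 after normexp, with 115 higher, and 874 after quantile normalization, with 366 higher. The methods' t-test gave 259, with 94 higher, on the scaled intensities and 124, with 88 higher, on the deposited values. The cause was not tested. With an array left out it was between 519, without control replicate 3, and 1965, without control replicate 2, and 618 without POCD replicate 3. With the replicate number as a block it was 1016. Each number holds 1 POCD and 1 control array, so this block cannot change the log2 differences of the pair, 0.88 and 1.12. Their standard errors with it were 0.21 and 0.21. With the group means removed, the correlation between equally numbered arrays was 0.011, -0.55 and -0.23 for numbers 1, 2 and 3. These values cannot show whether the numbers pair the mice, since mice handled together need not have similar signals. With slide row as a block the difference between the groups comes from POCD replicate 1 and the 3 controls alone, so no count is given. That difference was 0.89 for mmu_circRNA_27407 and 1.06 for mmu_circRNA_27408, and it is among the 13 alternatives.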
